A study of Mus musculus with 2 samples.

Results

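The genes described here are 10 genes of the acetylcholine receptor and of the assembly of the neuromuscular synapse, out of 32285 genes in the count table. They are the receptor subunit genes Chrna1, Chrnb1, Chrnd, Chrne and Chrng, the receptor clustering genes Musk, Dok7 and Rapsn, and the cholinesterase genes Ache and Prima1. They were chosen by name. Their transcripts were read in nuclei of plantaris and of gastrocnemius, both calf muscles, from C57BL/6 mice aged 12 weeks. Each muscle gave 1 library of nuclei sorted after staining with propidium iodide, a DNA dye, and no treatment or other genotype is given for either group. The nuclei were divided by whether they held a unique molecular identifier (UMI, a tag that counts a captured transcript once) of Colq or Ufsp1. Colq encodes the collagen tail that anchors acetylcholinesterase in the synaptic basal lamina, and Ufsp1 is a gene beside Ache. "Positive" below means 1 or more UMIs of either gene, and "negative" means 0 UMIs of each.

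A muscle fibre is one cell with many nuclei, and a few of them lie under the nerve terminal. In mice those nuclei transcribe the genes of the postsynaptic membrane, while nuclei along the rest of an innervated fibre largely do not. The adult receptor is built from the products of Chrna1, Chrnb1, Chrnd and Chrne, and the fetal receptor holds the product of Chrng in place of that of Chrne. Nerve-derived agrin binds Lrp4, which activates the receptor kinase MuSK, and Dok-7 and rapsyn then help to gather receptors beneath the nerve.

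Promoter sequence is shown for 4 of the genes, chosen for their patterns. Chrne and Chrna1 UMIs were gathered in positive nuclei, most Chrnb1 UMIs lay in negative myonuclei, and Prima1 differed most by myosin type. Each line holds the 250 bases before the RefSeq start on GRCm38.p6, read from 5′ to 3′ on the gene's strand. Capitals mark the N-box (TTCCGG or its reverse complement CCGGAA), a motif bound by ETS factors, and the E-box (CANNTG), a motif bound by myogenic factors.
Chrne, chr11:70619195-70619444, minus strand: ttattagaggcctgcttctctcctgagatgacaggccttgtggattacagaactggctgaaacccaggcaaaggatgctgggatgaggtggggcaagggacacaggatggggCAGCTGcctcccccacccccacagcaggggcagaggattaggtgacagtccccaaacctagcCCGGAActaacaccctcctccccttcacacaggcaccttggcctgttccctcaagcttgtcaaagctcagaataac
Chrna1, chr2:73580339-73580588, minus strand: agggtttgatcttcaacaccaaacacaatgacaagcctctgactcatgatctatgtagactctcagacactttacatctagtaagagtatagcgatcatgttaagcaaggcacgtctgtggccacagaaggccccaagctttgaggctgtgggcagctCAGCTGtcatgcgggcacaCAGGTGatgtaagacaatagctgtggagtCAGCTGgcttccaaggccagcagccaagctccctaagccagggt
Chrnb1, chr11:69795938-69796187, minus strand: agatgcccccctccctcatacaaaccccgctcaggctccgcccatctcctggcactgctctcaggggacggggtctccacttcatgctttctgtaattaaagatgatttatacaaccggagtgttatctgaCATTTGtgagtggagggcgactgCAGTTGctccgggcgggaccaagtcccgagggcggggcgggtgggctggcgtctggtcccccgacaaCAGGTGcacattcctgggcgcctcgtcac
Prima1, chr12:103242147-103242396, minus strand: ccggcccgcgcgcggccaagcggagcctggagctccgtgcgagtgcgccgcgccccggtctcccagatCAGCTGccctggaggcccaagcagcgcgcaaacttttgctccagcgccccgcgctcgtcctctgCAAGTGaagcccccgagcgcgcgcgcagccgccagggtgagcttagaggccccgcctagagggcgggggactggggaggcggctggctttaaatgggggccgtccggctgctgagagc
The Chrne window held 1 N-box, from base -76 to base -71 before the start, and 1 E-box, from -138 to -133. The Chrna1 and Chrnb1 windows each held 3 E-boxes and 0 N-boxes, and the Prima1 window held 2 E-boxes and 0 N-boxes. Counted on both strands, the N-box was in 12.0% of 32851 promoter windows of that length and the E-box in 66.2%. No motif in these windows overlapped the other. A match is a stretch of letters and is not evidence of binding.

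Plantaris gave 9149 analysed nuclei and gastrocnemius 7372, and the libraries shared 17 barcode sequences (0.186% of plantaris and 0.231% of gastrocnemius barcodes). Clusters named from marker genes held 5804 myonuclei in plantaris, with a median of 3333 UMIs, and 5093 in gastrocnemius, with a median of 2851. Neither muscle was replicated, so nothing was tested, and muscle, animal and library cannot be told apart. Levels are UMIs summed over the nuclei of a group, given as CPM, the usual depth-scaled unit, with the group's own UMI total as the divisor. Intervals, in parentheses, are at 95% and cover counting error only. A gene was called higher or lower when its CPM differed by 2-fold or more, a log2 ratio of 1 or more in size, with 20 or more UMIs over both groups.

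Positive nuclei made up the same small share of myonuclei in both muscles. They numbered 97 of 5804 in plantaris, or 1.67% (1.36 to 2.04%), and 85 of 5093 in gastrocnemius, or 1.67% (1.34 to 2.06%). Colq and Ufsp1 were found together in 30 positive nuclei of plantaris and 21 of gastrocnemius. Colq alone marked 41 nuclei of plantaris and 45 of gastrocnemius, and Ufsp1 alone marked 26 and 19. In the other named classes, which should lack both transcripts, 13 of 3205 nuclei of plantaris (0.406%) and 9 of 1987 nuclei of gastrocnemius (0.453%) were positive, at median depths of 1485 and 1201 UMIs. How many positive myonuclei hold only a UMI of free RNA was not tested. A single cluster, of 80 nuclei in plantaris and 65 in gastrocnemius, held 61 (62.9%) of the positive nuclei of plantaris and 48 (56.5%) of those of gastrocnemius. Its leading genes included Colq, Tafa4, Ano4, Col4a3 and Ncam1. Since the genes described here took part in the clustering, this Colq-led cluster is used only as a description.

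Positive nuclei were set against negative ones first, to see which of the genes follow the junctional transcripts. In plantaris, 9 of the 10 genes had 20 or more UMIs, and 6 of them were higher in positive nuclei by 2-fold or more (Chrna1, Chrnb1, Chrnd, Chrne, Musk and Ache), against 15.2% of 10769 genes. Chrna1 and Chrnd reached 20 UMIs only through the positive nuclei, which held 13 of 21 and 21 of 28 UMIs. Their calls therefore follow in part from the filter on UMIs. In gastrocnemius, 7 had 20 or more UMIs and 4 were higher (Chrnb1, Chrne, Musk and Ache), against 16.4% of 9619 genes. The lower calls were 1 (Prima1, in plantaris) and 0, against 6.68% and 6.6% of all genes compared. The median log2 ratio of the genes with enough UMIs was 2.14 in plantaris and 1.01 in gastrocnemius, and that of all genes compared was 0.11 and 0.12.

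**Figure D1:**
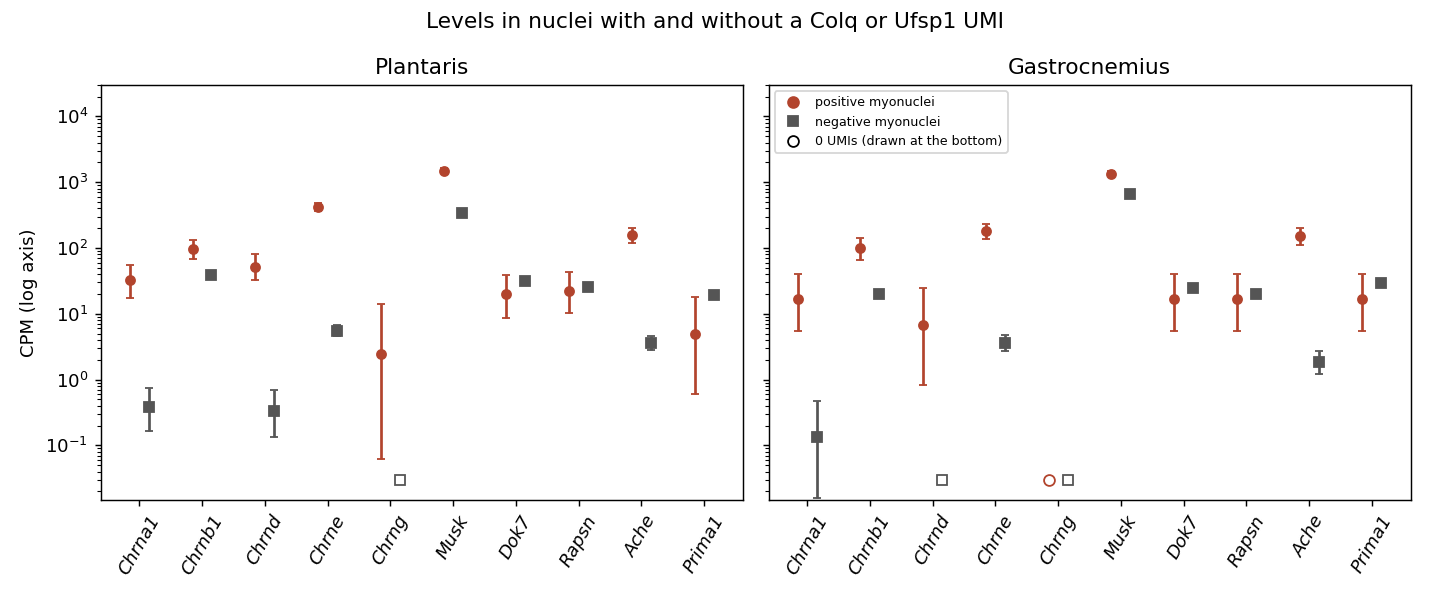
CPM (log axis) of each gene in positive (circles) and negative (squares) myonuclei of plantaris (left) and gastrocnemius (right), with 95% Poisson intervals; open symbols at the bottom are groups with 0 UMIs. Chrne and Ache lie far apart between the groups in both muscles, while Dok7 and Rapsn overlap.

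Among the receptor subunits, Chrne, which encodes the adult epsilon subunit, had the most UMIs in positive nuclei of both muscles. It lies on chromosome 11 from 70614883 to 70619216 on the minus strand (GENCODE M21, GRCm38, used for all positions here). It stood at 420 CPM (169 UMIs) in positive and 5.55 CPM (116 UMIs) in negative nuclei of plantaris, a log2 ratio of 6.24 (5.89 to 6.60). In gastrocnemius it stood at 180 CPM (53 UMIs) in positive and 3.64 CPM (55 UMIs) in negative nuclei, a log2 ratio of 5.62 (5.05 to 6.20). The other named classes had 1.74 CPM in plantaris and 3.77 CPM in gastrocnemius, so negative nuclei of gastrocnemius lay no higher than classes that should lack the transcript. Chrne UMIs were found in 51.5% of positive and 1.42% of negative nuclei of plantaris. With nuclei thinned to 1000 UMIs and kept in the same groups, these shares were 34.1% and 0.503%. In gastrocnemius they were 29.4% and 0.998%, and 13.6% and 0.439% after thinning.

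Chrnd, the gene of the delta subunit on chromosome 1 (87190607 to 87200070), had few UMIs outside positive nuclei. It had 21 UMIs (52.2 CPM) in positive and 7 UMIs (0.335 CPM) in negative nuclei of plantaris, a log2 ratio of 7.29 (6.00 to 8.76). Gastrocnemius had 2 UMIs in positive and 0 in negative nuclei, too few for a ratio. Chrna1, the alpha subunit gene on chromosome 2 (73563215 to 73580338), whose product forms the main part of the acetylcholine binding site, had 13 UMIs (32.3 CPM) in positive and 8 UMIs (0.383 CPM) in negative nuclei of plantaris, a log2 ratio of 6.40 (5.02 to 7.88). Gastrocnemius had 5 UMIs in positive and 2 in negative nuclei. Chrng, the fetal gamma subunit gene, had 1 UMI in positive and 0 in negative nuclei of plantaris and 0 UMIs in both groups of gastrocnemius. A count of 0 in the 85 positive nuclei of gastrocnemius allows up to 10.2 CPM.

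Chrnb1, the beta subunit gene on chromosome 11 (69784036 to 69795943), had UMIs in positive and negative myonuclei and in the other named classes. It had 97.0 CPM in positive and 39.3 CPM in negative nuclei of plantaris, a log2 ratio of 1.30 (0.80 to 1.77). With nuclei of 3 or more Myh UMIs in place of the myonuclear clusters that ratio was 0.88, below the call. Gastrocnemius had 98.3 CPM in positive and 20.1 CPM in negative nuclei, a log2 ratio of 2.29 (1.69 to 2.84). The other named classes had 37.6 CPM in plantaris and 17.9 CPM in gastrocnemius, close to the negative myonuclei of the same library. Muscle stem cells stood above both, at 174 CPM (142 to 211) in plantaris and 109 CPM (69.3 to 164) in gastrocnemius. Over negative myonuclei these are log2 ratios of 2.15 and 2.45, in a comparison where 28.6% and 33.5% of all genes were higher in stem cells. Mesenchymal progenitors had 18.6 CPM of Chrnb1 in plantaris and 9.62 CPM in gastrocnemius.

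Musk, the gene of the receptor kinase that starts receptor clustering (chromosome 4, 58285960 to 58374303), was higher in positive nuclei of both muscles on a broad base level. It stood at 1498 CPM in positive and 340 CPM in negative nuclei of plantaris, a log2 ratio of 2.14 (2.02 to 2.26). In gastrocnemius it stood at 1349 CPM in positive and 669 CPM in negative nuclei, a log2 ratio of 1.01 (0.86 to 1.16). The gastrocnemius call lies at the threshold. The ratio was 0.97 with nuclei of 3 or more Myh UMIs in place of clusters. It was 1.60 after thinning, with positive nuclei called again on the thinned counts. For positive nuclei of the Colq-led cluster alone it was 1.76. That value does not bear on the call, since the genes described here took part in the clustering. Musk UMIs were found in 79.4% of positive and 49.1% of negative nuclei of plantaris, and in 80.0% and 67.5% of those of gastrocnemius. After thinning, in the same groups, the shares were 57.1% and 24.4% in plantaris, and 67.9% and 42.6% in gastrocnemius. The other named classes held 152 CPM in plantaris and 251 CPM in gastrocnemius.

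For Dok7 and Rapsn no difference was detectable at this depth. Dok7, which encodes the cytoplasmic activator of MuSK (chromosome 5, 35056766 to 35087839), had 8 UMIs (19.9 CPM) in positive and 652 UMIs (31.2 CPM) in negative nuclei of plantaris, a log2 ratio of -0.65 (-1.87 to 0.34). In gastrocnemius it had 5 UMIs (16.9 CPM) in positive and 372 UMIs (24.6 CPM) in negative nuclei, a log2 ratio of -0.54 (-2.17 to 0.70). Rapsn, which encodes the scaffold that holds receptors together (chromosome 2, 91035620 to 91045729), had 9 UMIs (22.4 CPM) in positive and 536 UMIs (25.6 CPM) in negative nuclei of plantaris, a log2 ratio of -0.20 (-1.33 to 0.74). Its gastrocnemius ratio was -0.23 (-1.86 to 1.01), on 5 UMIs in positive and 300 in negative nuclei. All 4 intervals include 0, and after thinning Dok7 in gastrocnemius was at 1.33, the other direction. Gm13778, which overlaps Rapsn by 1638 bases, had 0 UMIs in positive and 104 in negative nuclei of plantaris, and 1 and 49 in those of gastrocnemius. In the other named classes together Dok7 stood at 12.5 CPM in plantaris and 11.9 CPM in gastrocnemius, and Rapsn at 14.4 and 11.9 CPM. Muscle stem cells, 1 of these classes, had 37.5 CPM of Rapsn in plantaris and 57.0 CPM (12 UMIs) in gastrocnemius. Over negative myonuclei these are log2 ratios of 0.55 (-0.14 to 1.16) and 1.52 (0.55 to 2.35). In gastrocnemius 3 of 6 genes with a ratio were called higher in stem cells (Chrnb1, Rapsn and Ache, Ache on 1 UMI), against 33.5% of all genes. In plantaris it was 1 of 7 (Chrnb1), against 28.6%.

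Ache, the gene of acetylcholinesterase, which clears acetylcholine from the cleft, was far higher in positive nuclei of both muscles. It had 157 CPM (63 UMIs) in positive and 3.64 CPM (76 UMIs) in negative nuclei of plantaris, a log2 ratio of 5.43 (4.92 to 5.93). In gastrocnemius it had 152 CPM (45 UMIs) in positive and 1.85 CPM (28 UMIs) in negative nuclei, a log2 ratio of 6.36 (5.65 to 7.10). The negative level was close to that of the other named classes, 3.47 CPM in plantaris and 1.89 CPM in gastrocnemius. Ache lies on chromosome 5 from 137287519 to 137294466, and Ufsp1 starts 163 bases after its end on the same strand, so a read near that border could be given to either. In nuclei marked by Colq alone, where Ufsp1 had 0 UMIs, Ache stood at 52.2 CPM (22.5 to 103) in plantaris and 79.8 CPM (39.8 to 143) in gastrocnemius. Gm42456, a noncoding gene on the other strand that overlaps Ache by 1144 bases, had 27 UMIs in positive and 13 in negative nuclei of plantaris, and 14 and 7 in those of gastrocnemius. Whether the counting used strand is not given in the sources used here.

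Prima1 (chromosome 12, 103196908 to 103242150) encodes a membrane anchor of acetylcholinesterase, known chiefly from brain. It had 2 UMIs (4.98 CPM) in positive and 402 UMIs (19.2 CPM) in negative nuclei of plantaris, a log2 ratio of -1.95 (-5.00 to -0.09). In gastrocnemius it had 5 UMIs (16.9 CPM) in positive and 451 UMIs (29.9 CPM) in negative nuclei, a log2 ratio of -0.82 (-2.45 to 0.42). The lower call in plantaris rests on 2 UMIs, both in 1 nucleus, and was at -0.89 with nuclei of 3 or more Myh UMIs in place of clusters.

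**Figure D2:**
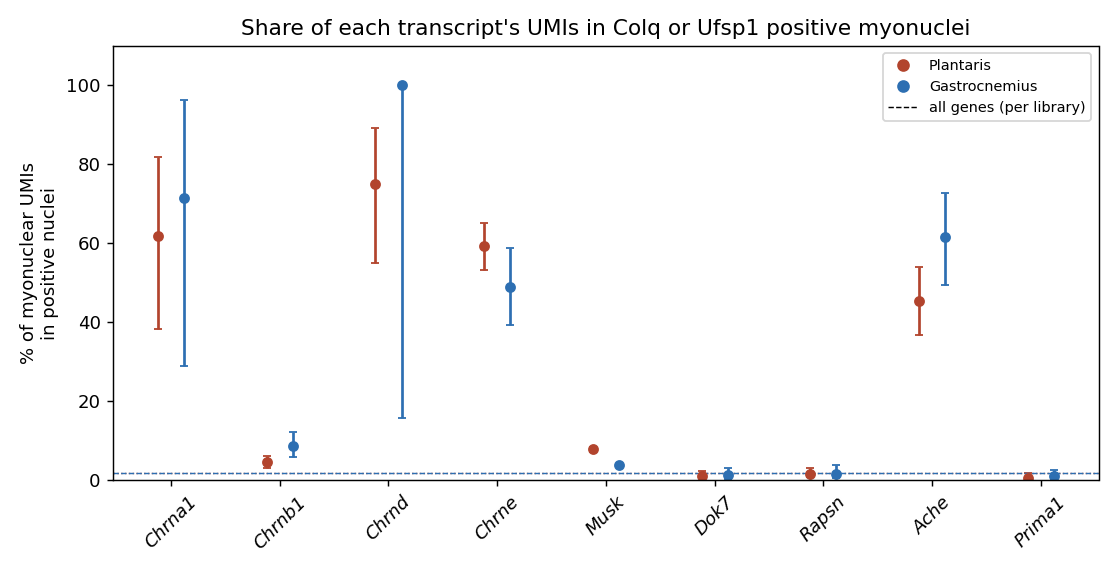
Percent of each gene's myonuclear UMIs that lie in positive nuclei, by muscle, with exact binomial intervals; dashed lines give the share of all UMIs (1.89% in plantaris and 1.92% in gastrocnemius). Chrna1, Chrnd, Chrne and Ache stand at 45.3% or more, and the remaining genes at 8.73% or less; Chrng is not drawn.

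The same contrast can be read as the share of a gene's UMIs that the few positive nuclei held. Positive nuclei held 1.89% of all myonuclear UMIs in plantaris and 1.92% in gastrocnemius. They held 59.3% (53.3 to 65.1%) of the Chrne UMIs in plantaris and 49.1% (39.3 to 58.9%) in gastrocnemius. For Ache the shares were 45.3% (36.9 to 54.0%) in plantaris and 61.6% (49.5 to 72.8%) in gastrocnemius. After thinning to 1000 UMIs, positive nuclei were called again on the thinned counts. A nucleus that lost its Colq and Ufsp1 UMIs then counted as negative. The Chrne shares were then 42.5% in plantaris and 22.9% in gastrocnemius, and the Ache shares 22.6% and 44.4%. Chrnd had 75.0% of 28 UMIs there in plantaris, and Chrna1 had 61.9% of 21 UMIs. The shares were far smaller for the broadly found genes: Musk had 7.82% in plantaris and 3.79% in gastrocnemius, and Chrnb1 had 4.53% and 8.73%. Dok7, Rapsn and Prima1 were at 1.65% or less in both muscles, no higher than the share of all UMIs.

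Within the positive nuclei, Chrne, Ache, Chrna1 and Chrnd UMIs lay almost wholly in the Colq-led cluster, which they helped to form. The 36 positive nuclei of plantaris outside it had 1 Chrne UMI, 3 Ache UMIs and 0 of Chrna1 and Chrnd, and the 37 of gastrocnemius had 2 Chrne UMIs, 1 Ache UMI and 0 of Chrna1 and Chrnd. Musk in those nuclei was at 455 CPM (351 to 581) in plantaris and 445 CPM (344 to 566) in gastrocnemius. Part of what remained in negative nuclei lay in this cluster too. Its negative nuclei, 19 in plantaris and 17 in gastrocnemius, held 27 Chrne UMIs (483 CPM) in plantaris and 3 (137 CPM) in gastrocnemius. With this cluster left out of the negative nuclei, an alternative added after the data were seen, the Chrnd ratio in plantaris was 8.50. Under that setting Chrne was at 6.62, Chrnb1 at 1.32 and Musk at 2.16 in plantaris. Since the genes helped to form the cluster, these values are a description and do not bear on the calls. Several genes were also found in the same nucleus. After thinning to 1000 UMIs, 37.4% (27.4 to 48.1%) of positive nuclei of plantaris and 24.7% (15.8 to 35.5%) of those of gastrocnemius held UMIs of 2 or more of the 10 genes. In negative nuclei the shares were 3.67% and 4.18%, and in the other named classes 1.29% in each muscle. Before thinning the positive nuclei were at 61.9% and 54.1%, the negative ones at 20.6% and 18.1%, and the most genes seen in one nucleus was 6.

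**Figure D3:**
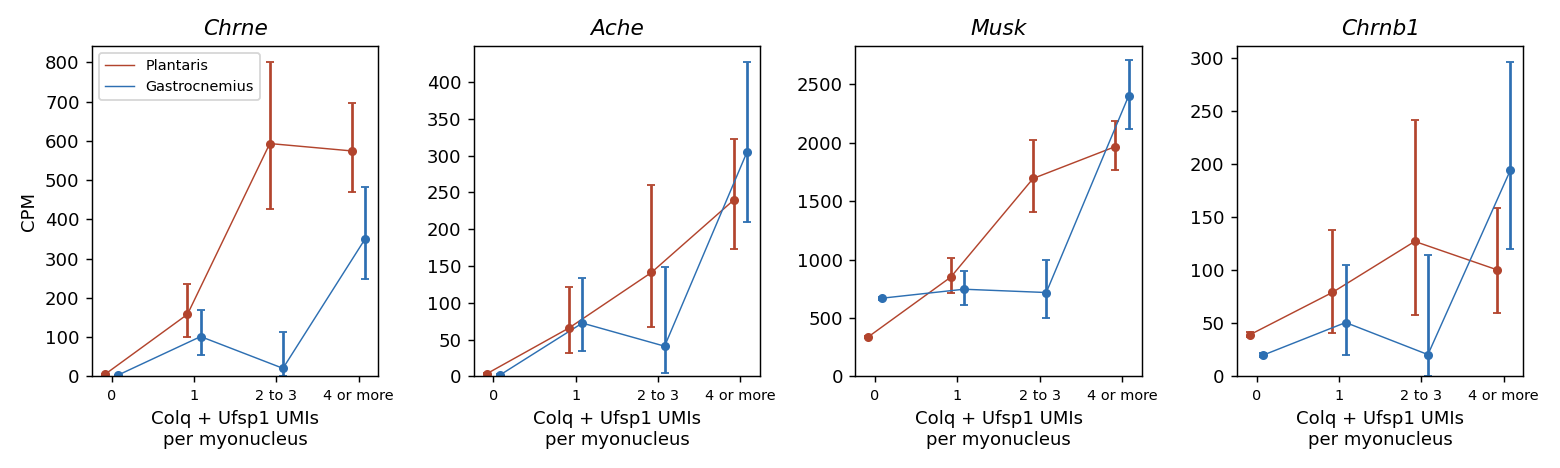
CPM of Chrne, Ache, Musk and Chrnb1 in myonuclei binned by their summed Colq and Ufsp1 UMIs, by muscle, with 95% Poisson intervals. In plantaris Chrne is at 593 CPM with 2 to 3 such UMIs and at 574 CPM with 4 or more; in gastrocnemius the bin of 2 to 3 holds 15 nuclei and stands low.

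In plantaris, Ache and Musk stood higher in each bin with more Colq and Ufsp1 UMIs, with few nuclei in the upper bins. The bins of gastrocnemius did not follow one order. With 0, 1, 2 to 3 and 4 or more such UMIs, plantaris held 5707, 44, 24 and 29 myonuclei. Chrne in these bins was at 5.55, 158, 593 and 574 CPM, so the upper bins did not differ beyond counting error. Ache was at 3.64, 65.9, 141 and 240 CPM in plantaris, and Musk at 340, 850, 1694 and 1968 CPM. The upper bins hold 24 and 29 nuclei, and whether Ache or Musk differs between them was not tested. Gastrocnemius held 5008, 44, 15 and 26 myonuclei in the bins, with Chrne at 3.64, 101, 20.5 and 351 CPM and Ache at 1.85, 72.4, 41.0 and 305 CPM. Musk there was at 669, 746, 718 and 2400 CPM, so it stood well above the level of negative nuclei only in the last bin. Deeper nuclei are more likely to show several UMIs: the median depth was 5614 UMIs in the last bin of plantaris and 4331 in that of gastrocnemius, and its part in the levels was not tested.

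Genes that work with the receptor were read from fixed lists, and those furthest from 0 in both muscles are named. Of 16 genes of agrin and MuSK signalling with enough UMIs, 1 was higher (Lrp4) and 1 lower (Pak1) in positive nuclei of plantaris, and 2 were higher (Lrp4 and Crkl) and 0 lower in gastrocnemius. Their median log2 ratios were -0.19 and -0.18, against 0.11 and 0.12 over all genes. For this and the next lists, the shares of all genes called in the same comparison were 15.2% higher and 6.68% lower in plantaris, and 16.4% higher and 6.6% lower in gastrocnemius. Lrp4, the agrin receptor that partners MuSK, was the one called in both, at log2 ratios of 2.38 (2.05 to 2.69) and 2.83 (2.31 to 3.32). Crkl was at 0.51 (-0.11 to 1.07) in plantaris and 1.17 (0.50 to 1.77) in gastrocnemius. Below 0 in both were Rac1, at -0.46 (-1.34 to 0.29) and -0.43 (-1.50 to 0.45), and Abl1, at -0.41 (-0.83 to -0.02) and -0.47 (-0.94 to -0.04). Of the neuregulin receptors and ETS factors, 5 of 8 with enough UMIs were higher in plantaris (Erbb4, Etv1, Etv4, Etv5 and Elk3) and 2 of 6 in gastrocnemius (Etv1 and Etv5), with medians of 2.64 and 0.24. Etv5, an ETS factor known for activating synaptic genes in mouse muscle, was at 8.07 (7.62 to 8.55) in plantaris and 7.58 (6.97 to 8.24) in gastrocnemius. Etv1 was at 3.19 and 1.66, and Gabpb1, a subunit of the factor that binds the N-box, at 0.21 (-0.75 to 1.03) and 0.30 (-0.93 to 1.29).

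Of 17 scaffold and anchoring genes with enough UMIs (medians 0.23 and 0.28), 6 were higher and 2 lower in plantaris, and 6 were higher and 1 lower in gastrocnemius. Phldb2, which links the membrane to microtubule ends, was at 7.42 in plantaris and 7.62 in gastrocnemius. Utrn, the synaptic relative of dystrophin, was at 5.18 and 5.84, and Sntb2, a syntrophin gene, at 3.80 and 3.93. Dtnb, a dystrobrevin gene, was lower at -1.51 and -1.79. Of the synaptic basal lamina genes, 12 of 13 with enough UMIs were higher in plantaris and 11 of 14 in gastrocnemius, with medians of 3.06 and 2.63. Col4a3, a basement membrane collagen gene, was at 7.60 and 7.67, and Col25a1, a transmembrane collagen gene, at 7.30 and 7.55. In gastrocnemius Col25a1 had 33 UMIs in positive and 9 in negative nuclei, so it passed the filter only through positive nuclei. Col4a4 was at 5.95 and 5.74. Col13a1, whose product is a transmembrane collagen of the synapse, was at 5.97 and 4.58. Of 10 genes that respond to activity or denervation (medians 0.44 and 0.64), Myod1, Runx1 and Ncam1 passed the call in both muscles, and Myf6 was lower in gastrocnemius. Myod1 was at 1.40 (0.16 to 2.41) in plantaris and 1.22 (-4.15 to 3.85) in gastrocnemius, there on 1 UMI in positive nuclei. Ncam1, a neural cell adhesion gene, led them at 7.18 and 7.68, and Runx1 was at 1.79 and 2.40. Gadd45a was at 0.72 (-2.35 to 2.64) and 0.82 (-4.53 to 3.41), on 2 and 1 UMIs in positive nuclei. None of the 11 other nicotinic subunit genes reached 20 UMIs in either muscle. Bche, the other cholinesterase gene, was at 0.35 (-0.79 to 1.29) in plantaris and 2.61 (0.91 to 3.94) in gastrocnemius, on 9 and 5 UMIs in positive nuclei, so it was called in gastrocnemius.

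Markers of other cell types were read in the same nuclei. Of the 6 macrophage markers, 4 had a UMI in positive nuclei of each muscle, and they summed to 94.5 CPM in positive and 10.1 CPM in negative nuclei of plantaris, and to 136 and 13.2 CPM in those of gastrocnemius. Mrc1 gave 29 of the 38 UMIs in positive nuclei of plantaris and 35 of the 40 in those of gastrocnemius, while Csf1r was at 0 in both. The 6 mesenchymal markers summed to 179 CPM in positive and 72.9 CPM in negative nuclei of plantaris, and to 180 and 86.7 CPM in those of gastrocnemius. Endothelial markers summed to 2.49 CPM in positive and 9.76 CPM in negative nuclei of plantaris, and to 20.3 CPM (6 UMIs) and 11.2 CPM in those of gastrocnemius. Smooth muscle markers summed to 19.9 and 16.2 CPM in plantaris, and to 6.78 CPM (2 UMIs) in positive and 2.58 CPM in negative nuclei of gastrocnemius. Pericyte markers were at 321 CPM in positive and 402 CPM in negative nuclei of plantaris, and at 420 and 406 CPM in those of gastrocnemius. Abcc9 gave 120 of the 129 UMIs in positive nuclei of plantaris and 115 of the 124 in those of gastrocnemius, so these sums follow Abcc9. Rgs5, Pdgfrb and Notch3 had higher CPM in positive nuclei of both muscles, on 5 or fewer UMIs each. Kcnj8 and Vtn were at 0 there. Stem cell markers were at 17.4 CPM in positive and 13.6 CPM in negative nuclei of plantaris, and at 6.78 and 12.0 CPM in those of gastrocnemius. Tenocyte markers were at 4.98 and 8.04 CPM in plantaris, and at 0 in positive and 6.62 CPM in negative nuclei of gastrocnemius. Adipocyte and lymphocyte markers were at 0 in positive nuclei of both muscles. The part of other cells in the ratios above was not tested.

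Myosin type was compared next, among negative nuclei with 3 or more UMIs of Myh1, Myh2, Myh4 and Myh7, grouped by the most abundant of these. Myh4 marks the fastest fibres, Myh1 an intermediate fast type, Myh2 the oxidative fast type and Myh7 slow fibres. Of the 10 genes, 3 of 7 with enough UMIs were lower in Myh2 than in Myh4 nuclei of plantaris (Chrnb1, Chrne and Prima1), against 12.7% of all genes. In gastrocnemius 1 of 5 genes with a ratio was lower (Prima1), against 11.1%. Chrne (0 UMIs in Myh2 and 55 in Myh4 nuclei) and Ache (0 and 27) had enough UMIs there but no ratio. Ratios replaced 0 by 3 counts, which lay above the Myh4 level of both. In Myh1 over Myh4 nuclei, 1 of 7 was lower in plantaris (Prima1), against 9.3%, and 2 of 6 in gastrocnemius (Musk and Prima1), against 10.7%. Chrne, with 0 UMIs in Myh1 and 55 in Myh4 nuclei of gastrocnemius, again had no ratio. The medians of all genes compared lay between -0.10 and 0.16.

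**Figure D4:**
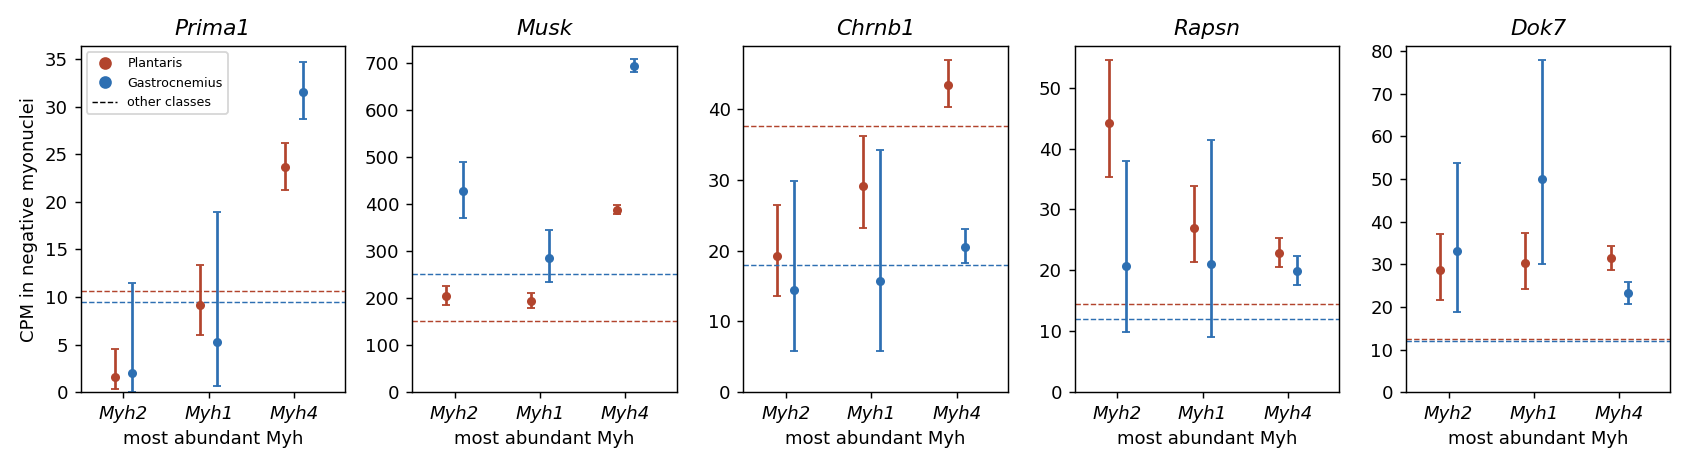
CPM of 5 genes in negative myonuclei by most abundant Myh transcript and muscle, with 95% Poisson intervals; dashed lines give the level in the other named classes of each library. Prima1 and Musk are highest in Myh4 nuclei of both muscles, where Musk stands at 388 CPM in plantaris and 694 CPM in gastrocnemius.

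Prima1 differed most. In plantaris it had 3 UMIs (1.56 CPM) in 562 Myh2 nuclei and 26 UMIs (9.13 CPM) in 753 Myh1 nuclei, against 367 UMIs (23.6 CPM) in 4119 Myh4 nuclei. The log2 ratios over Myh4 were -3.92 (-6.21 to -2.36) for Myh2 and -1.37 (-2.01 to -0.80) for Myh1. In gastrocnemius it had 1 UMI (2.07 CPM) in 171 Myh2 nuclei and 2 UMIs (5.25 CPM) in 129 Myh1 nuclei, against 438 UMIs (31.5 CPM) in 4494 Myh4 nuclei. Those ratios were -3.93 (-9.24 to -1.45) and -2.59 (-5.64 to -0.73). The other named classes had 10.7 CPM in plantaris and 9.43 CPM in gastrocnemius, above the level in Myh2 nuclei. After thinning, 0 Myh2 nuclei of either muscle held a Prima1 UMI, against 2.50% of Myh4 nuclei of plantaris and 2.91% of those of gastrocnemius. With 0 replaced by a floor of 3 counts, the thinned ratios were -1.97 in plantaris and -0.43 in gastrocnemius. These are not upper limits, since the interval in plantaris reached up to -1.64.

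Musk was also lower in Myh2 and Myh1 nuclei, by less. It had 205 CPM in Myh2 and 194 CPM in Myh1 nuclei of plantaris, against 388 CPM in Myh4 nuclei, with log2 ratios of -0.92 (-1.07 to -0.77) and -0.997 (-1.13 to -0.87). The Myh1 ratio was just short of the call and was at -1.06 with nuclei of 10 or more Myh UMIs. In gastrocnemius it had 428 CPM in Myh2 and 286 CPM in Myh1 nuclei, against 694 CPM in Myh4 nuclei, with ratios of -0.70 (-0.91 to -0.50) and -1.28 (-1.57 to -1.01). Chrnb1 was at 19.2 CPM in Myh2, against 43.4 CPM in Myh4 nuclei of plantaris, a ratio of -1.18 (-1.70 to -0.70), and the gastrocnemius ratio was -0.51 (-1.83 to 0.56). Chrne was at 2.08 CPM (4 UMIs) in Myh2, against 5.47 CPM (85 UMIs) in Myh4 nuclei of plantaris, a ratio of -1.40 whose interval (-3.31 to 0.01) includes 0, and of -1.01 with the Colq-led cluster left out. Rapsn in plantaris ran the other way, just short of the call (1.25 after thinning), at 44.1 CPM in Myh2 against 22.8 CPM in Myh4 nuclei of plantaris, or 0.95 (0.59 to 1.30). Gastrocnemius had 20.7 against 19.9 CPM, or 0.06 (-1.02 to 0.96). Dok7 in Myh1 over Myh4 nuclei was at -0.06 (-0.40 to 0.28) in plantaris and 1.10 (0.35 to 1.77) in gastrocnemius. The gastrocnemius ratio passed the call, the only higher one of 6 genes there, against 13.9% of all genes. It rested on 19 UMIs in Myh1 nuclei and was 0.33 after thinning and 0.95 with 10 or more Myh UMIs.

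Most myonuclei, positive and negative, had Myh4 as their most abundant Myh transcript. The share was 67.0% (56.7 to 76.2%) of 97 positive and 72.2% of 5707 negative nuclei in plantaris, and 78.8% (68.6 to 86.9%) of 85 positive and 89.7% of 5008 negative nuclei in gastrocnemius. Nuclei under 3 Myh UMIs count in these totals. They were 12.4% of positive and 3.75% of negative nuclei in plantaris, so no direction is read from the plantaris shares. In gastrocnemius they were 5.88% and 3.59%, and the interval of the positive Myh4 share lay below the negative share. Myh7 led 6 of the 85 positive nuclei there (7.06%) and 0.319% of the negative ones. In positive nuclei of the Colq-led cluster Myh4 led 42 of 48, or 87.5% (74.8 to 95.3%), an interval that includes the negative share. No direction is therefore read from the gastrocnemius shares either. The 11 positive nuclei of Myh1 in plantaris formed the only other positive group of 10 or more with a Myh type. In those 11 nuclei Chrne was at 349 CPM and Musk at 1176 CPM, against 465 and 1609 CPM in the 65 Myh4 nuclei. The log2 ratios were -0.41 (-1.19 to 0.29) for Chrne and -0.45 (-0.85 to -0.07) for Musk. Ache was at 55.1 CPM (3 UMIs) in Myh1, against 206 CPM in Myh4 nuclei, a ratio of -1.90 (-4.22 to -0.29). Chrnb1 was at -1.56 (-4.67 to 0.41), on 2 UMIs in Myh1 nuclei, so 2 of 4 genes with enough UMIs were called lower, against 15.1% of all genes. Chrnd ran the other way, at 110 CPM (6 UMIs) in Myh1 and 35.0 CPM (10 UMIs) in Myh4 nuclei, too few UMIs for a call. Of the 22 gastrocnemius myonuclei led by Myh7, 6 were positive through 12 Colq UMIs, and the 22 together had 0 UMIs of the receptor subunits, Ache and Ufsp1 and 3 of Musk. At their summed depth a count of 0 allows up to 44.8 CPM.

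The muscles were then compared within positive nuclei. Of 5 genes with enough UMIs, 2 were higher in plantaris (Chrnd and Chrne) and 0 were lower, against 7.12% (higher) and 3.7% (lower) of 4326 genes. Chrne was at 420 CPM in plantaris and 180 CPM in gastrocnemius, a log2 ratio of 1.23 (0.77 to 1.70). Chrnd had 21 UMIs in plantaris and 2 in gastrocnemius, a ratio of 2.95 (0.91 to 6.08). Chrnd passed the filter on UMIs only through plantaris, the muscle in which it was higher. Its call, and so the count of 2 genes, therefore follows in part from that filter. Musk was at 0.15 (-0.03 to 0.34), or -0.54 after thinning, Ache at 0.04 (-0.54 to 0.62) and Chrnb1 at -0.02 (-0.75 to 0.73). Within positive Myh4 nuclei Chrne was at 1.10 (0.63 to 1.60) and Musk at 0.00 (-0.20 to 0.20). In positive nuclei of the Colq-led cluster alone Chrne was at 0.89, below the call. The positive nuclei of the muscles differed in their makeup, since 6 of gastrocnemius and 0 of plantaris were led by Myh7.

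**Figure D5:**
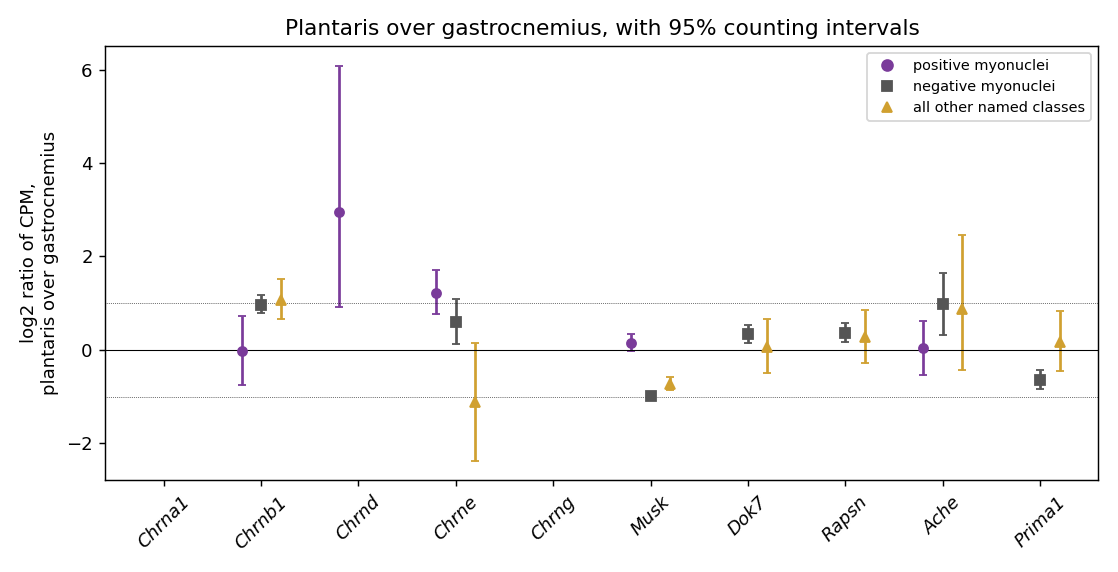
Log2 ratio of CPM in plantaris over gastrocnemius in positive myonuclei, negative myonuclei and the other named classes, for genes with 20 or more UMIs, with 95% intervals; dotted lines mark a 2-fold difference. Musk lies near 0 in positive nuclei and at -0.98 in negative nuclei.

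In negative nuclei 0 of 7 genes with enough UMIs were 2-fold or more apart, against 9.22% higher and 2.35% lower of 13085 genes, whose median was 0.18. Musk came closest on the lower side, at 340 CPM in plantaris and 669 CPM in gastrocnemius, a log2 ratio of -0.98 (-1.02 to -0.93). Within Myh4 nuclei it was at -0.84 (-0.89 to -0.79) and within Myh2 nuclei at -1.06 (-1.31 to -0.81). Musk was also lower in plantaris in the other named classes, at 152 against 251 CPM, a ratio of -0.72 (-0.86 to -0.59). Within negative Myh4 nuclei 2 of 7 genes were called higher in plantaris, against 8.76% of all genes: Chrnb1 at 1.08 (0.88 to 1.29) and Ache at 1.06 (0.39 to 1.77). Within negative Myh2 nuclei Rapsn was called higher, at 1.10 (0.15 to 2.21), and Musk lower, among 4 genes with enough UMIs, against 8.74% (higher) and 4.74% (lower) of all genes. Prima1 was at -0.63 (-0.83 to -0.44) over all negative nuclei and -0.42 (-0.62 to -0.21) within Myh4 nuclei. Chrnb1 was at 0.97 (0.78 to 1.17) over all negative nuclei and at 1.07 (0.66 to 1.51) in the other named classes. Ache was at 0.97 (0.33 to 1.65), on 76 UMIs in plantaris and 28 in gastrocnemius, and Chrne at 0.61 (0.13 to 1.10). Dok7 was at 0.34 (0.15 to 0.53) and Rapsn at 0.37 (0.16 to 0.58), intervals that include the median of all genes.

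The genes whose pattern was most like each of the 10 were found by Pearson's r of log2(CPM + 1) over 22 groups of nuclei (class, positivity, Myh transcript and library), among 6879 genes. These groups share 2 libraries and differ in depth, so the values are a description. Tafa4 came first for Chrnd (0.898), Chrne (0.891) and Chrna1 (0.771), and Pdzrn4 for Ache (0.885). B3galnt2 came first for Musk (0.837) and Pde4b for Chrnb1 (0.855). Dok7 was most like 0610040F04Rik (0.959), Rapsn most like Plet1os (0.913) and Prima1 most like Pebp4 (0.916). Chrng, with 1 UMI in all myonuclei, had no value above 0.638.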

How the data were processed

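The deposited table holds UMI counts, whole numbers per gene and nucleus, and a second deposited table gives the library of each barcode. Per the submitters' processing notes the authors used Cell Ranger 6.0.1 and genome build mm10. The sources used here do not give the annotation, the handling of intronic reads and strand, how nuclei were called or how many mice each library holds. Plantaris held 9156 nuclei and 29248275 UMIs, and gastrocnemius 7374 nuclei and 19048595 UMIs.

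Nuclei were kept at 200 genes or above and below 5% mitochondrial UMIs. Scrublet (scanpy 1.11.5) marked 1 nucleus of plantaris and 2 of gastrocnemius, was taken not to have worked, and doublets remain. Both libraries were clustered together after scaling to 10000, with 2000 variable genes, 30 components, 15 neighbours and leidenalg 0.10.2 at resolution 1. A cluster was named from 3 or more markers of one class. The cutoff for myonuclei (50% of a marker's highest cluster) was set after the clusters were seen, and a shallow cluster led by Ntng1, Itgb4 and Itga6 was left unnamed on its leading genes. Unnamed nuclei numbered 140 in plantaris and 292 in gastrocnemius. Names mean nuclei like that class.

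CPM intervals are exact Poisson, shares Clopper-Pearson and ratios exact conditional binomial. Ratios replaced 0 by 3 counts, and none was given where that passed the other group's level. The ratio code was tested on simulated data. Named were all 10 genes and, per list, up to 4 with the same sign and furthest from 0 in both muscles. Others named for a small count were chosen after their values were seen. The genes and lists were chosen with earlier results of these data known. Promoter sequences are from RefSeq (GRCm38.p6), which matched 8 of the 10 genes. Other software was Python 3.11.15, numpy 2.4.6, scipy 1.17.1 and pandas 2.3.3. One list of markers of another cell type is not reported here.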

Additional observations from a re-analysis of the deposited data

Results flagged for a closer look

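Several log2 ratios ran in opposite directions in a pair of settings, and none of these differences was tested. Dok7 in Myh2 over Myh4 nuclei was at -0.14 in plantaris and 0.51 in gastrocnemius, and both intervals include 0. Dok7 in Myh1 over Myh4 nuclei was at -0.057 in plantaris and 1.10 in gastrocnemius. Ache in Myh1 over Myh4 nuclei was at -0.94 in plantaris, on 6 UMIs in Myh1 nuclei, and at 0.43 in gastrocnemius, on 1 UMI.

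In plantaris over gastrocnemius, Chrnb1 was at -0.018 in positive and 0.97 in negative nuclei. Musk was at 0.15 in positive and -0.98 in negative nuclei.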

How the results depend on the processing

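No paired analysis was possible because each muscle has 1 library. Of 102 counts of called genes under 14 settings, 88 stayed within 1.5 times the count as reported, and of 703 ratios and shares 660 stayed inside their interval, with 0 called values changing sign. The count lower in Myh1 than in Myh4 nuclei of plantaris was 2, against 1, with each nucleus's own CPM averaged, with the highest doublet scores removed, with 10 or more Myh UMIs and with the shallow unnamed cluster counted as myonuclei. The count apart between the muscles in positive nuclei was 1, against 2, with 2 or more Colq and Ufsp1 UMIs, with Colq alone, with Ufsp1 alone, after thinning, with 3 or more Myh UMIs in place of clusters and in the Colq-led cluster only. In negative nuclei that count was 2 with averaged CPM and 1 with median-ratio scaling, with 3 or more Myh UMIs and with no filter on low counts, against 0; under median-ratio scaling Musk was at -1.16. Thinning moved the most values (20 of 46), with positivity and Myh type called again on the thinned counts. Its groups are therefore not the same nuclei at equal depth. Thinned ratios were 4.90 for Chrne in positive over negative nuclei of gastrocnemius and 1.99 for Chrne between the muscles. In positive nuclei of the Colq-led cluster alone, Chrne was at 6.86 in plantaris and 6.58 in gastrocnemius, Ache at 7.34 and Chrnb1 at 3.14 in gastrocnemius. The genes took part in forming that cluster, so these values are a description and do not bear on the calls. The settings on the Colq-led cluster, on Myh7 nuclei and on the unnamed cluster were chosen after seeing the data. The cause of these shifts was not tested. Depth limits Chrna1, Chrnd and Chrng most, with 7, 2 and 0 UMIs in all myonuclei of gastrocnemius.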
